A study of Mus musculus with 8 samples.

Results

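The 8 arrays of the study fell into 2 sets of fibroblast cultures, and the second set was compared with the first. The second set held the 4 arrays whose title ends in 2nd, the first the 4 arrays numbered 1 to 4, so all 8 of 8 arrays were used. Each set held 1 array of each of 4 groups, namely wild-type (WT) cells in normoxia, Hif-p4h-1 knockout (KO) cells in normoxia, WT cells in hypoxia and KO cells in hypoxia. All cells were fibroblasts from C57BL6/J mouse embryos at embryonic day 14.5, from lines that were Hif-p4h-1+/+ or Hif-p4h-1-/- in the whole animal. Hif-p4h-1, encoded by Egln2, is a prolyl hydroxylase that uses oxygen to tag hypoxia-inducible factor (HIF) for destruction. The sources used here do not give the oxygen level, the time in hypoxia, the passage number, the number of embryos or what the second set repeats.

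Embryonic fibroblasts are prepared by dispersing most of an embryo and letting the cells attach. Such a culture is a mixture at first. It holds connective tissue cells from many body positions, together with macrophages, muscle precursors and other cells that are diluted or lost as the fibroblasts divide. Fibroblasts keep the Hox gene pattern of the body position they came from. During growth on plastic they can acquire contractile proteins of the myofibroblast type, slow their division and express inhibitors of the cell cycle such as Cdkn2a.

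Each array gave 1 log2 level per gene, and the array medians lay between 5.01 and 5.12. The set difference is the second minus the first set within a group, averaged over the 4 groups, and a value of 1 is a 2-fold difference. Genes are called here when the adjusted p of the limma fit over 13647 tested genes was under 0.05. The spread behind each p-value is that between these arrays and may be technical only, because nothing in the labels says that arrays came from separate embryos. All arrays of a set share that set, so the culture, the RNA preparation, the hybridisation and the normalization cannot be told apart as sources of a set difference. The BioB, BioC, BioDn and CreX hybridisation controls were lower in the second set in 4 of 4 pairs (-1.22 to -0.17). So was the 3' minus 5' difference of the Actb control probe sets (-0.26 to -0.16). That of the Gapdh control probe sets differed by -0.25 and -0.05 in the WT pairs (normoxia, hypoxia) and by -0.16 and 0.07 in the KO pairs. The Dap, Lys, Phe and Thr spike controls were higher in the second set in both WT pairs (0.61 to 1.0) and differed by -0.21 to 0.21 in the KO pairs. The part of these technical differences in the results, those that depend on genotype included, was not tested. The probe set of highest mean stands for each gene. Further probe sets are given for some of the genes described below, and those of a gene without such values need not agree.

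The sets differed in a large share of the genes tested, mostly by small amounts. Of the 13647 genes, 6295 were called (46.1%), 3470 of them higher in the second set (25.4%) and 2825 lower (20.7%). The count of called genes fell to 4094 without the pairing by genotype and oxygen and to 4031 with normoxia and hypoxia averaged first. At least 2-fold differences were fewer, with 222 genes higher (1.63%) and 272 lower (1.99%). In 437 of these 494 genes no array of one set overlapped an array of the other, beside 4381 of all 13647 genes. The 494 genes were chosen by their difference on these same arrays, which favours such a separation. The median difference over all genes was 0.03. Of the called genes, 6148 differed the same way in all 4 pairs, which the call itself favours. Along the first principal component (54.1% of the variance) the 4 arrays of each set lay on opposite sides of 0.

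WT and KO pairs, which share no array but compare the same 2 sets, gave overlapping lists. A difference shared by a whole set, technical or not, enters both lists. In the 2 WT pairs alone 3978 genes were called, 15.5% of all genes higher and 13.7% lower. In the 2 KO pairs alone 3394 were called, 13.2% higher and 11.7% lower. The lists shared 2565 genes, which is 64.5% of the WT list and 75.6% of the KO list, and 14 of the shared genes had opposite directions. Across genes, the set differences of the normoxia and hypoxia pairs of one genotype correlated more closely (r = 0.851 in WT and 0.830 in KO) than those of different genotypes (0.710 to 0.768). Genes are not independent replicates, so these correlations are descriptions.

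The targeted gene was read first. Egln2 was at 8.84, 8.0, 8.95 and 8.66 in the first set and at 9.07, 8.34, 9.13 and 8.85 in the second, in the order WT normoxia, KO normoxia, WT hypoxia and KO hypoxia, which is kept for all values below. The KO array was below the WT array in each of the 4 comparisons within a set and oxygen condition. Egln2 was higher in the second set by 0.24 ± 0.063 (SE, n = 4 pairs, adjusted p = 0.0153), a call that was lost without either normoxic KO array (0.20, adjusted p = 0.0749 and 0.0765). Its probe set may or may not lie in the deleted part, which no label states.

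The labelled cell type was borne by its markers in both sets. Vim, Col1a2 and Sparc, which encode vimentin, a chain of collagen I and a matrix protein of mesenchymal cells, were between 13.63 and 14.56 on all 8 arrays. Of 20 fibroblast genes, all tested, 7 were higher and 3 lower in the second set, with a median of 0.12 beside 0.03 over all genes. The 2 receptors for platelet-derived growth factor went opposite ways. Pdgfra was at 9.83, 8.97, 9.87 and 9.11 in the first set and at 8.88, 8.14, 8.80 and 8.29 in the second, and Pdgfrb was at 11.60, 11.51, 11.72 and 11.61 against 12.22, 12.26, 12.18 and 12.11. Neither gene's sets overlapped. Pdgfra fell by 0.92 ± 0.067 on the log2 scale (adjusted p = 3.3e-05) and Pdgfrb rose by 0.58 ± 0.056 (adjusted p = 1.1e-04). Further probe sets gave -0.64 and -0.13 for Pdgfra, the last of them not called (adjusted p = 0.402), and 1.09 for Pdgfrb. Thy1, a surface glycoprotein of fibroblasts, was higher by 0.61 ± 0.096 (adjusted p = 0.00124).

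Sex of the cells did not separate the sets. Xist, the RNA that coats the inactive X chromosome of female cells, lay between 3.44 and 3.96 on all 8 arrays, and its mean was below 4.17, the level under which a gene was not tested. The Y-linked genes Eif2s3y (8.81 to 9.53), Uty (6.51 to 7.25) and Kdm5d (6.50 to 7.22) were read in both sets. The means of Tsix and Usp9y were below that level and Sry lay between 5.63 and 5.96. Uty was called higher by 0.35 and Eif2s3y fell by 0.20, and both turned sign when all probe sets of the gene were averaged (-0.01 and 0.03).

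The largest rise in the second set was that of Gzmd, followed by Gzme and Cck. Gzmd, a granzyme known from cytotoxic lymphocytes and from the pregnant uterus, was at 4.05, 4.99, 3.20 and 5.11 in the first set and at 9.26, 9.42, 9.12 and 9.17 in the second. The first set lay near or below the array medians, and all 4 arrays of the second set were well above them. The difference was 4.91 ± 0.26 (adjusted p = 1.1e-05), and a further probe set of Gzmd gave 5.01. Its neighbours in the same gene cluster followed, Gzme at 4.08 ± 0.27 and Gzmc at 2.73 ± 0.11 (adjusted p = 2.1e-05 and 6.9e-06). These granzymes are close paralogs, so reads of one probe set may include RNA of another, and the split between them is uncertain. Gzmf and Gzmg, from the same cluster, stayed at 3.28 or less on every array.

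Defining genes of lymphocytes were not called beside the granzymes. Genes of T cells, natural killer cells and mast cells were looked up after the granzyme values were seen. Cd3d, Cd3e, Cd4, Cd8a and Prf1, which encodes perforin, were tested and not called, with differences between -0.07 and 0.15. Cd3g, Cd2, Klrd1 and Gzma were below the tested level, as was Nkg7, which read 3.34 to 3.96 in the first set and 4.09 to 4.63 in the second. Gzmb was higher by 0.85 ± 0.15 (adjusted p = 0.00232), at 6.34 or less on every array. Mcpt8, a protease gene named for basophils and mast cells that lies in the same cluster as the granzymes, was at 7.20, 8.45, 7.33 and 8.59 in the first set and at 9.68, 9.82, 9.56 and 9.71 in the second. The sets did not overlap, with a difference of 1.80 ± 0.21 (adjusted p = 2.4e-04). The mast cell genes Cpa3, Mcpt4, Kit and Ms4a2 were below the tested level.

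Cck, which encodes the peptide hormone cholecystokinin, was at 5.95, 6.41, 7.52 and 7.90 in the first set and at 10.21, 9.98, 10.83 and 10.66 in the second. Its difference was 3.48 ± 0.20 (adjusted p = 1.3e-05), and the hypoxic array was the higher one within each genotype and set. Igfbp5, a binding protein for insulin-like growth factors, was at 10.15, 9.37, 10.44 and 9.62 against 12.76, 12.73, 12.69 and 12.62, a difference of 2.81 ± 0.15, while a further probe set gave 0.83. The second set was uniform while the first was lower in KO cells. Il11 and Il6, cytokines of the same receptor family, were higher by 2.14 ± 0.14 and 1.91 ± 0.13 (adjusted p = 2.2e-05 for each). Aoc3, an amine oxidase of smooth muscle and fat, rose by 2.74 ± 0.20, and Ppbp, a platelet chemokine precursor, by 2.37 ± 0.42. The other named rises at the top were Gpr149 (2.57), Syt13 (2.33), Kcnmb1 (2.32), Car8 (2.25), Galnt18 (2.15), Lce1f (2.09), Galnt13 (2.07), Ppp1r14a (2.01), 4930426L09Rik (2.00), Acta1 (1.94) and Myh11 (1.93). Further probe sets gave 1.01 for Syt13, 0.78 for Kcnmb1 and 1.16 for Galnt13.

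The largest falls in the second set were those of Cxcl10, Icam1 and Synm. Cxcl10, a chemokine that interferon induces, was at 9.11, 8.15, 7.86 and 7.31 in the first set and at 5.46, 4.80, 5.41 and 4.76 in the second. Icam1, an adhesion molecule for leukocytes, was at 7.36, 7.87, 7.24 and 8.06 against 5.16, 4.72, 5.20 and 4.01. Every first-set array was above every second-set array for both genes, which fell by 3.00 ± 0.20 and 2.86 ± 0.29 (adjusted p = 2.1e-05 and 1.5e-04). Synm, an intermediate filament protein, fell by 2.75 ± 0.12 (-1.24 in a further probe set), and Lum, the matrix proteoglycan lumican, by 2.62 ± 0.34. Aqp1, a water channel, fell by 2.32 ± 0.074 (adjusted p = 4.9e-06) and Penk, the precursor of enkephalins, by 2.12 ± 0.13. The other named falls at the top were Tmem26 (-2.57), Slc16a6 (-2.41), Acaa1b (-2.36), Ndnf (-2.33), Slc14a1 (-2.29), Slco4a1 (-2.26), Tnnt1 (-2.19), Nrk (-2.19), Bex1 (-2.18), Dock10 (-2.13) and Stmn2 (-2.12), besides Igf2, Tbx4 and Hoxd13, which are described with their groups.

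**Figure D1:**
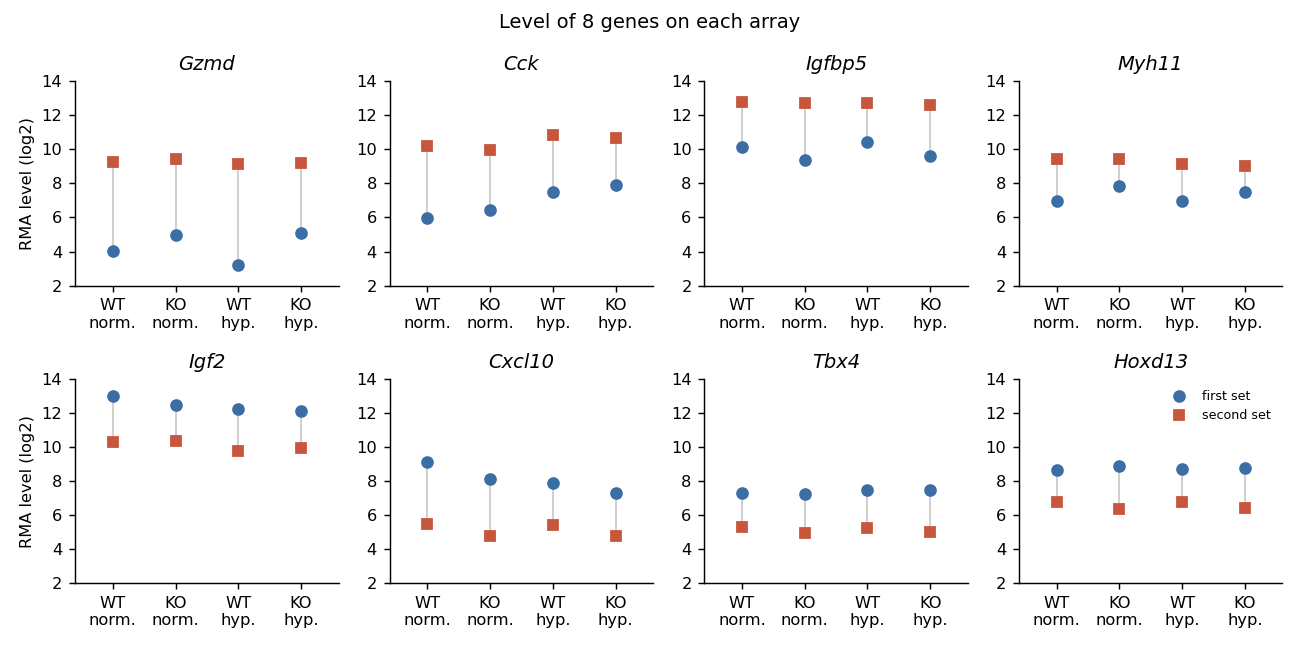
RMA level (log2) of 8 genes on each array, with the first set as blue circles and the second as red squares, by genotype and oxygen condition. A grey line joins the 2 arrays of a pair. In all 8 genes the sets do not overlap: Gzmd, Cck, Igfbp5 and Myh11 are higher in the second set in all 4 pairs, and Igf2, Cxcl10, Tbx4 and Hoxd13 are lower.

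Genes of cell division were lower in the second set almost without exception. The S phase list holds DNA replication genes, and of its 29 tested members 28 were lower and none higher, with a median of -0.80. The G2/M list holds mitosis genes, and of its 29 tested members 28 were lower and none higher, with a median of -0.93. The exceptions were E2f1 (0.09) and Plk1 (-0.14), neither of which was called. Over all genes 20.7% were lower, as given above. The S phase medians were alike in the 4 pairs, from -0.87 to -0.77. Those of G2/M were -1.06 and -0.98 in the normoxic pairs (WT, KO) and -0.83 and -0.65 in the hypoxic pairs.

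Mcm5, a subunit of the helicase that opens replication origins, was at 11.80, 11.66, 11.66 and 11.63 in the first set and at 10.74, 10.61, 10.65 and 10.61 in the second. Top2a, the topoisomerase of dividing cells, was at 12.27, 11.98, 12.27 and 12.10 against 11.04, 10.79, 11.28 and 11.07. All 4 arrays of the first set were above all 4 of the second for both genes. Mcm5 fell by 1.04 ± 0.044 (adjusted p = 6.9e-06) and Top2a by 1.11 ± 0.055 (adjusted p = 8.7e-06). The further probe sets of Mcm5 gave -0.33 and -0.35 and that of Top2a -1.66. Pcna, the sliding clamp of DNA polymerase, fell by 0.76 ± 0.039 and Rrm2, a ribonucleotide reductase subunit, by 0.76 ± 0.038. Bub1b and Birc5, of the spindle checkpoint and the chromosomal passenger complex, fell by 1.35 ± 0.088 and 1.00 ± 0.066, with further probe sets of Bub1b at -0.70 and -0.29, the second not called (adjusted p = 0.0675).

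Inhibitors of the cell cycle did not move as one group. Cdkn2a, the locus of the p16 and Arf inhibitors that accumulates as embryonic fibroblasts age in culture, was at 7.68, 7.96, 7.77 and 8.14 in the first set and at 9.82, 9.61, 9.52 and 9.55 in the second. All second-set arrays were above all first-set arrays, by 1.74 ± 0.11 (adjusted p = 1.9e-05). Cdkn2b, its neighbour, was called higher by 0.54, and Cdkn1a, the p21 inhibitor, differed by 0.06 and was not called. Of 20 tested genes linked to senescence and its secreted factors, 9 were higher and 6 lower (beside 25.4% and 20.7% of all genes), with a median of 0.35. Igfbp5, Il6, Cdkn2a and Igfbp7 (0.82) were among the higher, and Mmp3 (-1.54), Igfbp3 (-1.27), Trp53inp1 (-1.25), Lif (-1.21), Cxcl1 (-1.09) and Ccl2 (-0.57) were the lower ones.

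Targets of p53 were mostly lower. Of 24 tested, 17 were lower and 1 higher (beside 20.7% and 25.4% of all genes), with a median of -0.46. In the WT pairs alone 7 of the 24 were called lower (beside 13.7% of all genes) and in the KO pairs alone 14 (beside 11.7%). Btg2, which restrains proliferation, was at 10.96, 11.10, 9.99 and 10.62 against 9.88, 9.91, 8.89 and 9.17 and fell by 1.21 ± 0.071 (adjusted p = 1.4e-05), while its further probe set gave -0.22 and was not called (adjusted p = 0.130). Each second-set array was below its partner, and no array of the second set reached the lowest of the first. Sesn2 and Ei24 fell by 0.77 ± 0.071 and 0.51 ± 0.052, with a further probe set of Sesn2 at -0.12 (adjusted p = 0.309), and Phlda3, the exception, was higher by 0.63 ± 0.068. Perp, a p53 target that is also a desmosomal protein, fell by 1.45 ± 0.20.

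Contractile genes of myofibroblasts and smooth muscle were higher. Of 31 tested members 26 were higher and 2 lower (beside 25.4% and 20.7% of all genes), with a median of 0.66, and the pair medians lay between 0.52 and 0.81. Csrp1, a LIM protein of smooth muscle, was at 10.58, 10.80, 10.47 and 10.64 in the first set and at 12.50, 12.48, 12.43 and 12.31 in the second. Myh11, the smooth muscle myosin heavy chain, was at 6.98, 7.87, 6.95 and 7.50 against 9.41, 9.44, 9.16 and 9.0. Both genes were high on all 4 second-set arrays, by 1.81 ± 0.062 and 1.93 ± 0.15 (adjusted p = 4.9e-06 and 4.6e-05). Further probe sets gave 2.19 for Csrp1 and 0.55 for Myh11.

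Mylk, the kinase that activates myosin, was higher by 1.76 ± 0.13 (0.42 and 1.44 in further probe sets), Ankrd1 by 1.22 ± 0.067, Flna, which cross-links actin, by 0.93 ± 0.062, and Actg2, an actin of visceral smooth muscle, by 0.79 ± 0.056. Acta2, the actin most used as a myofibroblast marker, was called higher by 0.14 only. The 2 lower members were Tgfbi (-0.42) and Myh10 (-0.31). Tgfb3, a ligand that induces contractile genes, was higher by 1.36 ± 0.089 (adjusted p = 2.2e-05). Srf, the transcription factor that binds the CArG box of contractile genes, was higher by 0.71 ± 0.081 (adjusted p = 2.4e-04). Of 24 tested immediate early genes, many of them Srf targets, 15 were higher and 4 lower (beside 25.4% and 20.7% of all genes), and the lower were Egr1 (-0.59), Klf4 (-0.50), Jun (-0.36) and Fos (-0.36).

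The promoters of the contractile and the replication genes are shown because these groups differed most uniformly, in opposite directions. The 250 bases before each start site were searched on both strands in RefSeq promoters of build GRCm38.p6. The CArG box was in 3 of the 23 contractile genes with a promoter entry (13%), beside 1.62% of 27025 genes. The E2F words TTTCCCGC and TTTGGCGC were in 5 of 23 S phase genes (21.7%), beside 1.51% of all. The CHR word TTTGAA was in 9 of 24 G2/M genes (37.5%), beside 18.3% of all. A match describes these letters and not a bound site, and the genes below were chosen for their match. The first 4 stretches hold a CArG box in capitals. Acta1, the skeletal muscle actin gene, is added as the contractile gene with the largest named rise.
Cnn2: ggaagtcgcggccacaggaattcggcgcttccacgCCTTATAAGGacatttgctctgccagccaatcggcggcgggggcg
Myl9: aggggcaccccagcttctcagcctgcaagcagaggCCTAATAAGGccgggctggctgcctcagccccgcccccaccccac
Vcl: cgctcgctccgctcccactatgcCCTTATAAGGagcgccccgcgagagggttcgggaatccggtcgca
Acta1: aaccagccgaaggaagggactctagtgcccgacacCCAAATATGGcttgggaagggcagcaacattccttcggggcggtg
The stretches lie on the strand of their gene at chr10:79988509-79988588 (+), chr2:156775268-156775347 (+), chr14:20929148-20929215 (+) and chr8:123894804-123894883 (-). In the set comparison Cnn2 (0.65), Myl9 (0.82), Vcl (0.27) and Acta1 (1.94) were all called higher. So were 26 of the 31 tested contractile list members, so these calls do not set the matched genes apart.

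The next 3 stretches, of S phase genes, hold an E2F word in capitals.
Mcm5: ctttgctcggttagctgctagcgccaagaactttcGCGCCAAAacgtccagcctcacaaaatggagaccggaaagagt
Mcm7: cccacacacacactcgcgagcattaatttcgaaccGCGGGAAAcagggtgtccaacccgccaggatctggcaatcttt
Cdc6: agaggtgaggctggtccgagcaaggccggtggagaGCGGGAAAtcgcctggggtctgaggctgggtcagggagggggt
They lie at chr8:75109325-75109402 (+), chr5:138172006-138172083 (-) and chr11:98907978-98908055 (+). Mcm5 (-1.04), Mcm7 (-0.91) and Cdc6 (-1.31), which loads the helicase onto origins, were all called lower, as were 28 of the 29 tested S phase genes. Further probe sets of Mcm7 gave -0.35, -0.49 and -0.82.

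Interferon-response genes were mostly lower. Of 27 tested, 17 were lower and 2 higher (beside 20.7% and 25.4% of all genes), with a median of -0.50, and the pair medians lay between -0.73 and -0.29. Ifit2, which binds viral RNA, was at 8.80, 8.58, 8.94 and 9.07 against 7.70, 7.70, 8.12 and 8.07. Ifih1, a sensor of double-stranded RNA, was at 8.16, 7.24, 7.36 and 7.28 against 6.80, 6.48, 6.59 and 6.44. In both genes the sets did not overlap, and they fell by 0.95 ± 0.073 and 0.93 ± 0.12 (adjusted p = 4.0e-05 and 3.5e-04). For Ifih1 the normoxic WT array of the first set stood above the others. Gbp3 and Gbp2, guanylate-binding proteins, fell by 0.88 ± 0.10 and 0.86 ± 0.13. The higher members were Oas2 (0.38) and Ifitm3 (0.23). The core of the interferon-stimulated element, a pair of GAAA words with 2 bases between them, on either strand, was in 12 of 21 of these genes with a promoter entry (57.1%), beside 3.46% of all genes, and the one of Cxcl10 is shown in capitals for the largest fall.
Cxcl10: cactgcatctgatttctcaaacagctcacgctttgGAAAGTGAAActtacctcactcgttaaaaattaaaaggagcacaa
It lies at chr5:92349058-92349137 on the minus strand.

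Maturation was read from fetal growth genes and from genes of mature connective tissue. Of 18 tested fetal growth genes, most of them imprinted or bound to imprinted pathways, 13 were lower and 2 higher (beside 20.7% and 25.4% of all genes), with a median of -0.40 and pair medians between -0.45 and -0.40. Igf2, the fetal insulin-like growth factor, was at 12.98, 12.47, 12.25 and 12.08 in the first set and at 10.31, 10.34, 9.77 and 9.95 in the second. No second-set array came within 1 log2 unit of a first-set array. Igf2 fell by 2.35 ± 0.092 (adjusted p = 6.9e-06), and a further probe set gave -4.22. Gpc3, a proteoglycan that restrains growth, fell by 1.57 ± 0.077, Dlk1, a Notch-like inhibitor of differentiation, by 1.14 ± 0.088 and Igf2bp1, a fetal RNA-binding protein, by 1.11 ± 0.086. The 3 further probe sets of Igf2bp1 gave -0.42, -0.20 and -0.10, and the last 2 were not called (adjusted p = 0.0928 and 0.382). The higher members were Gnas (0.36) and Ndn (0.24), and Gnas turned sign when its probe sets were averaged (-0.19).

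Mature connective tissue genes did not move as one. Of 27 tested, 7 were higher and 8 lower (beside 25.4% and 20.7% of all genes), with a median of -0.12, which turned to 0.02 without either normoxic array of WT or KO cells. Fbln2, an elastic fibre protein, was called higher by 0.92, but a further probe set gave -0.81 and their mean 0.05 (adjusted p = 0.849). Mfap5, of microfibrils, was higher by 1.25 ± 0.17. Cd34, a marker of adult tissue fibroblasts, fell by 1.42 ± 0.14 and Mfap4 by 1.17 ± 0.12. Lum was at 9.69, 7.89, 9.0 and 7.68 in the first set and at 6.09, 6.44, 5.46 and 5.78 in the second, so its WT pairs fell further than its KO pairs.

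**Figure D2:**
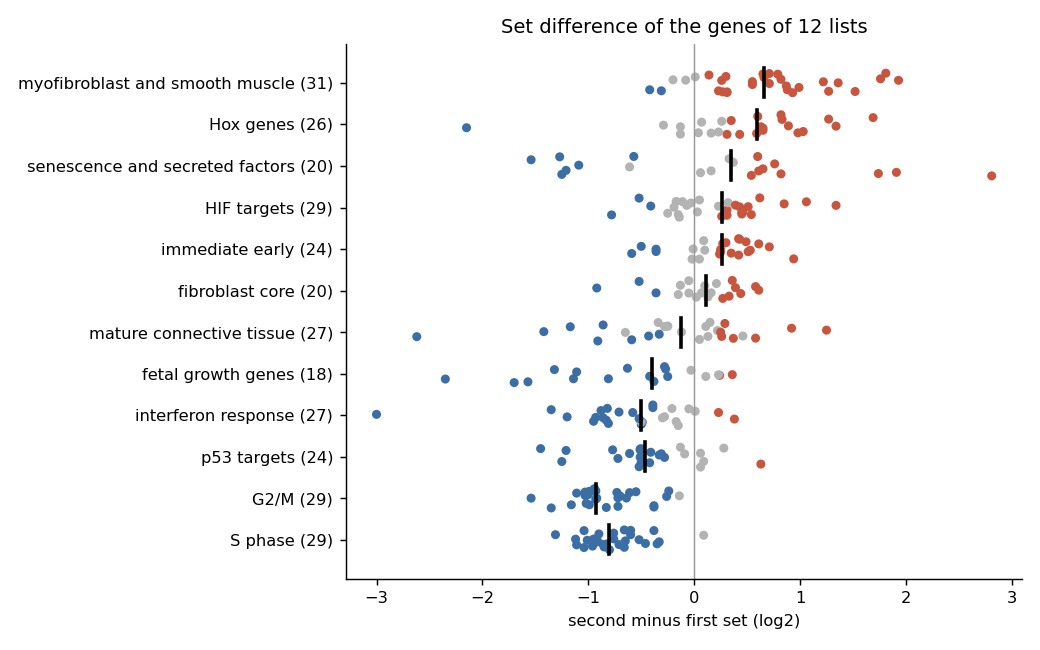
Set difference (second minus first, log2) of every tested member of 12 gene lists, with the number tested in parentheses. Red points were called higher, blue points called lower and grey points not called, and the black bar is the list's median. S phase and G2/M lie almost wholly below 0, with medians of -0.80 and -0.93, and the myofibroblast list mostly above 0, with a median of 0.66.

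Position markers differed as well. Of 26 tested Hox genes, 17 were higher in the second set and 1 lower (beside 25.4% and 20.7% of all genes), with a median of 0.60, and the pair medians lay between 0.48 and 0.57. Hoxc8, expressed in the trunk, was at 7.50, 7.62, 7.07 and 7.14 in the first set and at 9.20, 9.30, 8.79 and 8.81 in the second. Hoxd13, expressed in the hand and foot and in the tail end of the body, went the other way, at 8.64, 8.89, 8.68 and 8.78 against 6.79, 6.39, 6.80 and 6.41. Both genes had sets that did not overlap. Hoxc8 was higher by 1.69 ± 0.064 (adjusted p = 6.9e-06), and Hoxd13 fell by 2.15 ± 0.12 (adjusted p = 1.3e-05), while a further probe set of Hoxd13 gave -0.28 (adjusted p = 0.0747).

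All clusters but the Hoxa cluster had a member called higher by more than 2-fold. These were Hoxb9 (1.34 ± 0.083), Hoxd8 (1.27 ± 0.070), Hoxb2 (1.03 ± 0.080) and Hoxc8, and Hoxc10 followed at 0.98 ± 0.078. In the Hoxa cluster Hoxa10 (0.89), Hoxa3 (0.83) and Hoxa11 (0.35) were called higher, and 2 further probe sets of Hoxa3 gave 0.09 and 0.20. A further probe set of Hoxb3 gave 0.21 and was not called (adjusted p = 0.117). The Hoxb and Hoxc clusters gave Hoxc13 (0.82), Hoxb6 (0.65), Hoxc5 (0.65), Hoxb3 (0.63), Hoxc4 (0.60), Hoxc9 (0.59), Hoxb4 (0.43) and Hoxc6 (0.31), and the Hoxd cluster Hoxd9 (0.64). The call of Hoxc6 was lost without a normoxic array of either genotype (0.32, adjusted p = 0.0624 to 0.0707) or a hypoxic WT array (0.24, adjusted p = 0.110 and 0.113). Members with no call were Hoxa5 (0.26), Hoxd10 (0.23), Hoxb5 (0.16), Hoxa7 (0.07), Hoxa2 (0.04), Hoxa9 (-0.13), Hoxd11 (-0.13) and Hoxb13 (-0.29). Another 7 Hox genes with a probe set were below the tested level.

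**Figure D3:**
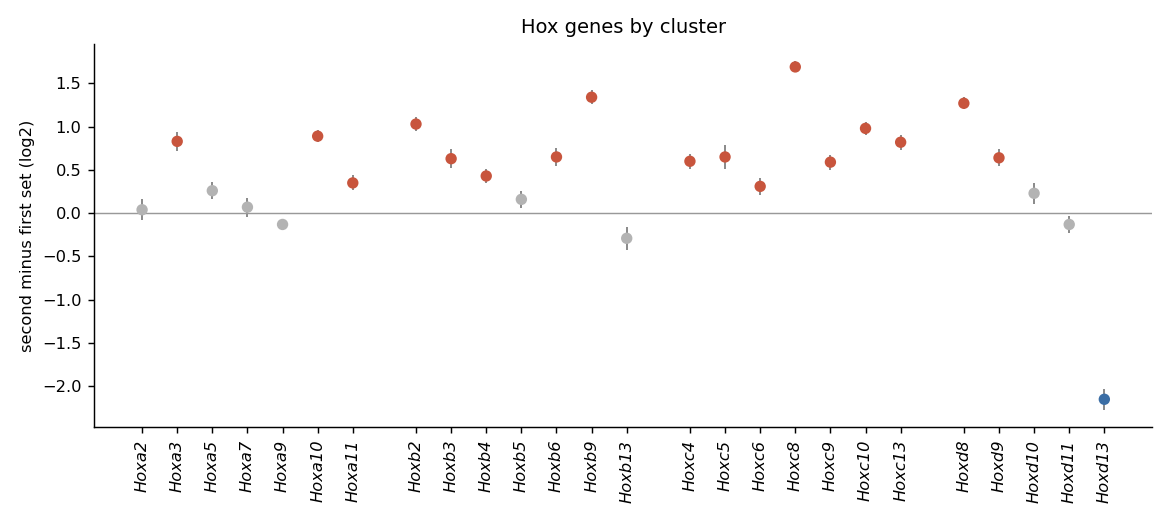
Set difference (second minus first, log2) of the 26 tested Hox genes, ordered by cluster and by number within the cluster, with bars of 1 SE. Red points were called higher, the blue point lower and grey points not called. Hoxd13 at -2.15 is the only called fall, and Hoxc8 at 1.69 is the highest.

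Patterning genes of the limb and body wall did not move as one. Of 33 tested, 12 were higher and 7 lower (beside 25.4% and 20.7% of all genes), with a median of 0.09. Tbx4, a T-box factor of the hindlimb and lung, was at 7.31, 7.27, 7.48 and 7.45 against 5.31, 4.94, 5.24 and 5.01. Lhx9, a LIM homeobox factor of the limb bud and gonad, was at 7.65, 8.47, 8.36 and 8.95 against 5.48, 6.56, 6.12 and 6.95. In both genes the second set was low on all 4 arrays, by 2.25 ± 0.10 and 2.08 ± 0.086 (adjusted p = 6.9e-06 for each), with further probe sets of Lhx9 at -1.89 and -0.89. Lhx2, a related limb bud factor, was called lower by 1.80. Tbx5, the forelimb counterpart of Tbx4, differed by -0.14 and Pitx1, a hindlimb factor, by -0.03, and neither was called.

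Emx2, needed for the shoulder blade and the urogenital tract, was higher by 1.08 ± 0.076 and Meis1, a partner of Hox proteins in the trunk and upper limb, by 1.07 ± 0.087, although a further probe set of Meis1 gave -0.07. Shox2, of the upper limb skeleton, was higher by 0.96 ± 0.060 and Tbx15, of the skin and shoulder girdle, by 0.63 ± 0.074. Of 16 tested genes of visceral mesenchyme 5 were higher and 1 lower, with a median of 0.21, and the higher share is near the 25.4% of all genes. Foxf1, a factor of gut and lung mesenchyme, was at 6.32, 6.88, 6.56 and 6.75 against 7.70, 7.98, 7.24 and 7.55. Its sets did not overlap, and it was higher by 0.99 ± 0.12 (adjusted p = 3.3e-04), with a further probe set at 0.49. Foxd1, of kidney stroma and skin, was the lower member at -0.54 ± 0.088.

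Markers of other cell types differed between the sets, and for some lists the difference was not the same in WT and KO pairs. In bulk RNA, fewer cells of a type and less RNA per cell cannot be told apart. Of 31 tested macrophage and leukocyte genes, 21 were lower in the second set and 1 higher (beside 20.7% and 25.4% of all genes), with a median of -0.87. The mean log2 level over the 35 genes of the list was 7.03 and 6.65 on the WT arrays of the first set and 5.35 and 5.44 on its KO arrays. In the second set it was 5.84 and 5.64 in WT and 5.15 and 5.11 in KO cells. The first-set WT arrays were thus the highest and the second-set KO arrays the lowest.

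Csf1r, the receptor that macrophages need for survival, was at 9.84, 8.04, 9.54 and 7.96 in the first set and at 8.16, 7.32, 8.02 and 6.78 in the second. Lyz2, a lysozyme of macrophages and granulocytes, was at 10.16, 8.77, 9.55 and 8.63 against 8.90, 7.64, 8.52 and 7.33. Across genotypes the sets overlapped in both genes, and within each pair the second array was lower. Csf1r fell by 1.28 ± 0.14 (adjusted p = 2.2e-04) with 2 further probe sets at -0.25 and -0.01, and Lyz2 by 1.18 ± 0.070 (adjusted p = 1.5e-05). Pf4, C1qa and Cd14 fell by 1.43 ± 0.092, 1.26 ± 0.19 and 0.89 ± 0.13. Itgam, Aif1, F13a1 and Ccl3 were below the tested level. In the WT pairs alone 23 of the 31 were called lower (beside 13.7% of all genes) and in the KO pairs alone 6 (beside 11.7%).

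Skeletal muscle genes separated 2 arrays from the other 6. Myh3, the embryonic myosin heavy chain, was at 8.53, 3.68, 8.35 and 3.81 in the first set and at 3.58, 3.83, 3.87 and 4.00 in the second. Myog, the transcription factor of muscle differentiation, was at 8.04, 3.86, 7.96 and 4.20 against 3.48, 3.98, 3.93 and 4.33. Both genes were high on the 2 WT arrays of the first set and near the tested level or below it on the other 6. Mylpf, a myosin light chain, was at 10.50 and 10.41 on those 2 arrays and at 6.99 or less elsewhere. Over the 36 genes of the list the mean level was 6.48 and 6.56 on those 2 arrays and between 4.84 and 5.17 on the other 6.

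In the WT pairs alone 19 of the 26 tested muscle genes were called lower (beside 13.7% of all genes), and in the KO pairs alone 1 was called lower (beside 11.7%) and 5 higher (beside 13.2%). Over all 4 pairs 5 were lower, near the 20.7% of all genes, and 1 higher. The lower were Tnnt1 (-2.19), Mef2c (-1.87), Tnnc2 (-1.65), Chrna1 (-1.09) and Casq2 (-1.04). Mef2c fell in the KO pairs too (-1.02 and -0.92, beside -2.44 and -3.09 in WT pairs), and 1 of its 4 further probe sets was not called (-0.39, adjusted p = 0.0966). Without an array of either WT pair Tnnt1 (-1.64 to -1.63), Tnnc2 (-1.27 to -1.09), Chrna1 (-0.88 to -0.74) and Casq2 (-0.75 to -0.72) were no longer called, with adjusted p of 0.0668 to 0.143. The higher gene was Acta1, the skeletal actin that fibroblasts with contractile fibres can also express, at 9.65, 9.22, 9.21 and 9.10 against 11.44, 11.54, 10.90 and 11.06. All 4 second-set arrays were above the first set, by 1.94 ± 0.096 (adjusted p = 8.7e-06). The means of Myod1, Myf5 and Pax7, which mark muscle precursors, were below the tested level. Myod1 was at 4.98 and 4.57 on the WT arrays of the first set and at 4.07 or less elsewhere.

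**Figure D4:**
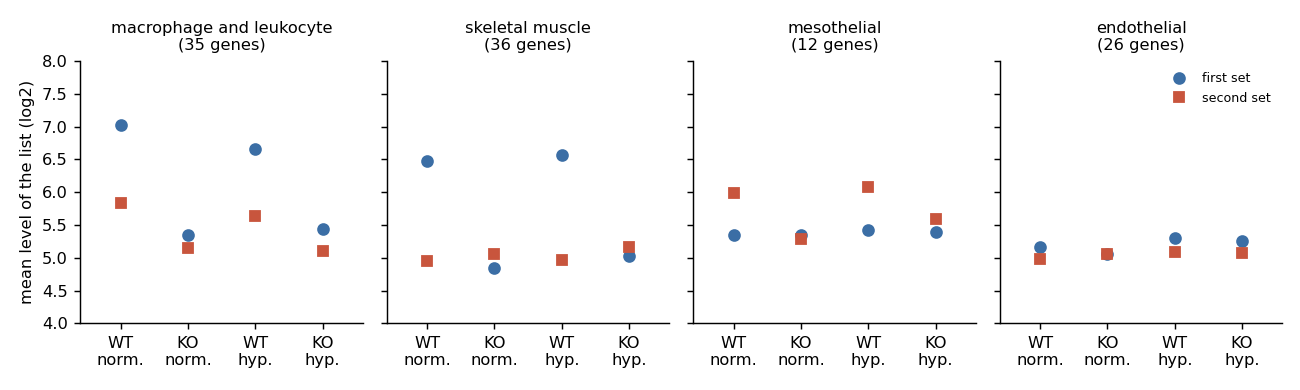
Mean log2 level of 4 marker lists on each array, over all genes of the list with a probe set, with the first set as blue circles and the second as red squares. Skeletal muscle markers are at 6.48 and 6.56 on the WT arrays of the first set and at 5.17 or less on the other 6, and macrophage markers are highest on the same 2 arrays.

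Whether the set difference was the same in WT and KO pairs was tested directly, as the set difference of KO minus that of WT cells. This test called 224 genes, 97 with a more positive value in KO cells (0.711% of genes tested) and 127 with a more negative one (0.931%). Quantile normalization of the 8 arrays raised the count from 224 to 1300. The Dap, Lys, Phe and Thr spike controls, given above, also differed by genotype in their set difference. Of the 26 skeletal muscle genes 17 were called, all positive. The 8 largest positive values were all muscle genes, with Myh3 at 4.89, Mylpf at 4.60, Myl1 at 4.55, Myog at 4.42, Actc1 at 3.65, Myl4 at 3.64, Tnnt1 at 3.34 and Tnni1 at 3.19. Their adjusted p lay between 5.6e-04 and 0.00298. Of the 31 macrophage genes 9 were called positive, Tyrobp (1.04, adjusted p = 0.0463) among them. Of the 31 myofibroblast and smooth muscle genes 6 were called negative and none positive, with a median of -0.24. These counts stand beside 0.711% positive and 0.931% negative of all genes. The fit leaves 1 residual degree of freedom, and leaving out an array leaves none. Each genotype had 1 normoxic and 1 hypoxic array per set, and both may come from 1 cell preparation. An effect of genotype and a difference of a single preparation therefore cannot be told apart in this test.

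The largest negative values were in a different set of genes. Mid1, a ubiquitin ligase of microtubules, was at 5.04, 7.83, 4.04 and 6.42 in the first set and at 5.87, 5.37, 6.44 and 5.64 in the second. It was high on both KO arrays of the first set and lower on KO than on WT arrays in the second, with a value of -3.24 (adjusted p = 0.00287). Upk1b, Lrrn4 and Upk3b, which mark mesothelium, the lining of body cavities, had values of -1.98, -1.91 and -1.64. Upk1b was at 5.50, 6.47, 5.19 and 6.21 against 7.66, 6.53, 7.19 and 6.36, so it was highest on the 2 WT arrays of the second set. Of 10 tested mesothelial genes 4 were called negative and 1, Gpm6a, positive. The other large negative values were Ppbp (-2.39), Asic3 (-1.96), Cxcl5 (-1.85), Cemip (-1.85) and Gjb2 (-1.73).

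**Figure D5:**
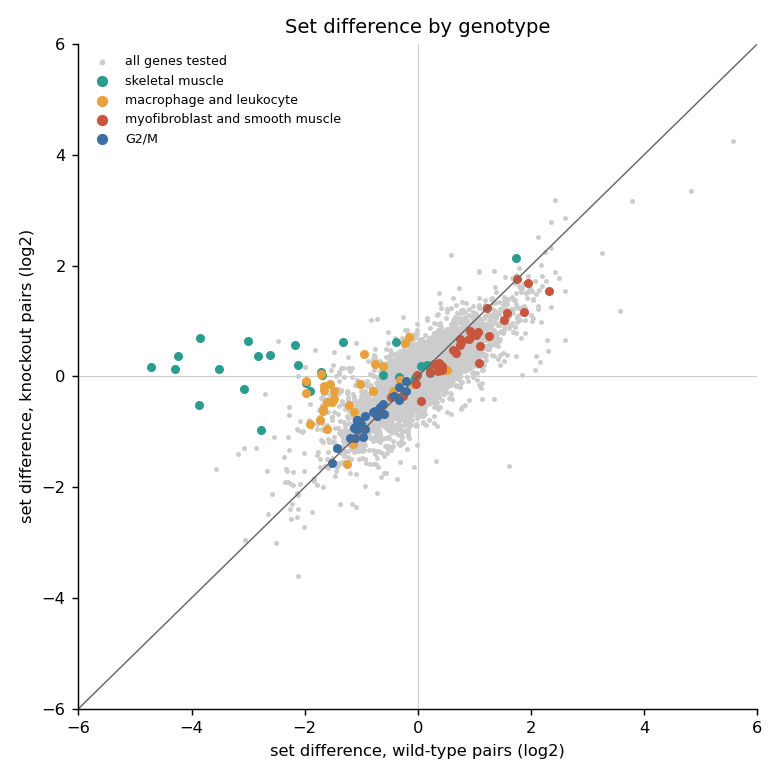
Set difference (second minus first, log2) in the KO pairs against that in the WT pairs for the 13647 tested genes in grey, with 4 gene lists in colour and the line of equal values. Myofibroblast genes lie mostly above 0 on both axes, with a median KO minus WT value of -0.24. G2/M genes lie along the line below 0. Skeletal muscle genes spread to the left near 0 on the KO axis, with Myh3 differing by 4.89 between the genotypes.

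The remaining cell type lists are given beside 25.4% of all genes called higher and 20.7% lower. Of 10 tested mesothelial genes 6 were higher and 2 lower in the set comparison itself, with a median of 0.55. The pair medians were 0.68 and 0.65 in WT cells (normoxia, hypoxia) and 0.09 and 0.35 in KO cells. In the WT pairs alone 4 of the 10 were called higher (beside 15.5% of all genes) and in the KO pairs alone 2 (beside 13.2%). The lower members were Efemp1 (-1.23) and Gpm6a (-0.85), of which a further probe set gave -0.26 and was not called. Among 18 tested endothelial genes 7 were lower and 1 higher, with a median of -0.22. Kdr, a receptor for vascular endothelial growth factor, fell by 0.90 ± 0.14 (adjusted p = 0.00105), and Eng, a TGF-beta co-receptor that fibroblasts also carry, was higher by 0.60 ± 0.079 (0.29 in a further probe set). Pecam1, Cdh5 and Vwf, which define endothelium, were below the tested level.

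Of 23 tested epithelial genes 4 were higher and 2 lower, smaller shares than the 25.4% and 20.7% of all genes, and Cdh1, the epithelial cadherin, was below the tested level. Among 17 tested cartilage genes 2 were lower, Col2a1 at -0.77 ± 0.073 and Col11a1 at -0.84 ± 0.091, and none was higher. Of 11 bone genes 6 were higher and 1 lower, with Tnfrsf11b, a decoy receptor that restrains osteoclasts, higher by 1.53 ± 0.13 and Cdh11 by 0.65 ± 0.056. The lower one was Omd (-0.62). Alpl was not called (0.29, adjusted p = 0.12 in limma), and Ibsp, Dmp1 and Phex were below the tested level. Of 10 pericyte genes 4 were higher and 3 lower, with Mcam higher by 1.63 ± 0.12 and Rgs5 at -0.75 ± 0.15, of which a further probe set gave -0.26 and was not called (adjusted p = 0.148). Of 11 adipocyte genes 4 were higher and 2 lower, and Adipoq was below the tested level. The 3 tested erythroid genes were not called.

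Among 17 tested genes of neurons and glia 4 were higher and 4 lower (beside 25.4% and 20.7% of all genes), with large members on both sides. Stmn2, a microtubule regulator of growing axons, was at 8.04, 8.42, 8.65 and 9.09 against 5.72, 6.45, 6.70 and 6.85, and Gap43, a growth cone protein, was at 9.21, 8.65, 9.07 and 8.48 against 6.87, 6.99, 6.75 and 6.78. Both were low on all 4 second-set arrays, by 2.12 ± 0.091 and 2.01 ± 0.13 (adjusted p = 6.9e-06 and 2.2e-05), with a further probe set of Stmn2 at -1.39. Tubb3, a neuronal tubulin, was higher by 1.10 ± 0.15, S100b by 1.07 ± 0.17 and Fabp7 by 0.98 ± 0.13. The means of Dcx, Snap25 and Sox2 were below the tested level. Dcx was at 5.57 and 6.04 on the WT arrays of the first set and at 3.93 or less elsewhere.

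Stress and oxygen-related genes gave smaller differences. Of 29 tested HIF target genes 14 were higher and 3 lower (beside 25.4% and 20.7% of all genes), with a median of 0.26. Vegfa, the angiogenic factor, was at 7.63, 8.07, 8.85 and 8.90 in the first set and at 9.25, 9.50, 10.20 and 9.84 in the second. Its second-set normoxic arrays were above the hypoxic arrays of the first set, and the difference was 1.34 ± 0.10 (adjusted p = 4.1e-05), with a further probe set at 0.54. Pfkfb4, a regulator of glycolysis, was higher by 1.06 ± 0.089. Car9, Ankrd37, Slc2a1, Pdk1 and Egln3, also HIF targets, were not called (-0.25 to 0.32).

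Of 29 ATF4 and unfolded protein response genes 11 were higher and 9 lower (beside 25.4% and 20.7% of all genes), with a median of 0.09. Atf5, a stress transcription factor, was at 9.10, 9.01, 9.24 and 9.21 against 10.95, 10.69, 10.96 and 10.81 and was higher by 1.71 ± 0.059 (adjusted p = 4.9e-06), with no overlap. Of 17 NRF2 targets 7 were higher and 5 lower, with a median of 0.08. Mt2, a metallothionein, at 1.33 ± 0.12 and Hmox1, which degrades haem, at 1.07 ± 0.12 were among the higher. Nqo1 at -0.64 ± 0.13 and Gsr at -0.44 ± 0.078 were among the lower. Of 18 cholesterol synthesis genes 2 were higher and 3 lower, and the median was 0.03 and 0.07 in the normoxic pairs but -0.68 and -0.40 in the hypoxic ones. Whether the set difference depended on oxygen was tested as well. No gene was called by limma in that test, with 1670 genes at an unadjusted p under 0.05, while quantile normalization of the 8 arrays gave 595 called genes.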

How the data were processed

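RNA of each culture was read on its own one-colour Affymetrix array. The authors deposited log2 values from RMA, per the submitters' processing notes, which subtracts background, brings arrays to one distribution and summarizes probe sets. Its version and whether both sets were normalized together are not given. The platform annotation named 34945 of the 45037 non-control probe sets with a single gene, the 932 with several genes were left out, and 9160 have no name here. Current symbols came from RefSeq genes of GRCm38.p6 by Entrez identifier (34741 matched). The probe set of highest mean stood for each of 18193 genes. Genes with a mean under the 25th percentile (log2 4.17) were left out, and members below it are named as below the tested level.

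The log2 values were fitted with limma 3.58.1 in R 4.3.3 with a term for each genotype and oxygen group and one for the set, which pairs the arrays of a group. The fit leaves 3 residual degrees of freedom, to which eBayes with a mean-variance trend added 5.22, and it was checked on simulated data. All p-values are two-sided and Benjamini-Hochberg adjusted over all genes tested. A further fit added set by genotype and set by oxygen terms. An exact test over 4 pairs cannot go below p = 0.125, so none is given for single genes. Precision is limited by the number of arrays, and SEs come from the fit.

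The members and the 29 gene lists were chosen with earlier results of these data known, and no list was tested as a set. Genes were named by a rule that takes the 20 largest rises and falls among called genes with 4 pairs in the same direction, the 8 largest interactions each way, up to 6 members of each list by adjusted p, the 3 cell type markers of highest level, and all Hox and sex-linked genes. Other genes named as exceptions, for a promoter match, for completing a group or as lymphocyte, mast cell and aryl hydrocarbon receptor genes were chosen after their values were seen.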

Additional observations from a re-analysis of the deposited data

Results flagged for a closer look

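In 40 of the named genes the set difference depended on genotype, tested as an interaction term in limma (adjusted p under 0.05 in each). Over all genes tested, 0.711% were called with a more positive KO minus WT value and 0.931% with a more negative one. The largest interactions each way were named for their size in this same test, which favours a high count among named genes. The KO minus WT values of the 40 genes were as follows. Muscle genes gave 4.89 (Myh3), 4.60 (Mylpf), 4.55 (Myl1), 4.42 (Myog), 3.65 (Actc1), 3.64 (Myl4), 3.34 (Tnnt1), 3.19 (Tnni1), 2.84 (Tnnc2), 1.85 (Casq2), 1.80 (Mef2c) and 1.64 (Chrna1). Matrix and secreted factor genes were positive for Lum (1.90), Igfbp5 (0.75) and Postn (0.52), and negative for Efemp1 (-1.16), Mfap5 (-0.88), Il11 (-0.72) and Fbln2 (-0.45). Mesothelial genes were at -1.98 (Upk1b), -1.91 (Lrrn4) and -1.64 (Upk3b), with Gpm6a at 1.24. Further positive values belonged to Slc14a1 (1.78), Bex1 (1.78), Tyrobp (1.04), Nrk (0.96) and Lpl (0.60). Further negative values belonged to Mid1 (-3.24), Ppbp (-2.39), Asic3 (-1.96), Cxcl5 (-1.85), Cemip (-1.85), Gjb2 (-1.73), Gzme (-1.49), Pparg (-1.26), Aoc3 (-1.04), Perp (-1.03), Myh11 (-0.79) and Galnt18 (-0.53).

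Among 69 results screened over their 4 pairs (the 40 largest differences and 29 list medians), 5 had 1 pair apart from the other 3. The gap over the range was 0.900 for Gpr149, 0.848 for Acaa1b, and 0.913, 0.833 and 0.875 for the medians of the cartilage, adipocyte and ATF4 and unfolded protein response lists, above Dixon's critical value. Chance marks about 1 in 20 such groups. The hypoxic WT pair stood apart in each of the 5, for Gpr149 at 1.93 and for Acaa1b at -1.05, which are the smallest differences of these genes. It lay at -0.25 for cartilage, -0.46 for adipocyte genes and -0.01 for the ATF4 list.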

How the results depend on the processing

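The count of 6295 called genes lay between 5078 and 5590 when 1 array was left out, and the counts of at least 2-fold higher and lower genes lay between 199 and 285 and between 253 and 328. Without the pairing by genotype and oxygen, 4094 genes were called, and 4031 with normoxia and hypoxia averaged first. With fewer arrays the counts were 3978 in WT pairs, 3394 in KO pairs, 2647 in normoxia pairs and 881 in hypoxia pairs. At least 2-fold higher genes numbered 368 in WT pairs and 130 in hypoxia pairs, and lower ones 158 in hypoxia pairs and 180 with a filter at the 50th percentile. Quantile normalization of the 8 arrays raised the genotype interaction from 224 to 1300 genes and the oxygen interaction from 0 to 595, and no filter gave 1 for oxygen, where the cause was not tested. Leaving out 1 array could not be fitted for the interactions, since no residual degrees of freedom remain. Setting array medians equal moved the share of higher calls from 55.1% to 64.5%. Of 208 named genes called, the mean of all probe sets reversed Gnas (-0.19), Uty (-0.01) and Eif2s3y (0.03). Hypoxia pairs alone ended 112 of the 208 calls, normoxia pairs alone 67, KO pairs alone 47 and WT pairs alone 34, with no reversal. Without the pairing by genotype and oxygen 50 calls were lost. With genotype by set as a random block 1 call was lost (correlation 0.00863). Among 6408 genes with several probe sets above the tested level, all probe sets shared 1 sign in 57.4%, and in 89.5% of the 219 of them called at least 2-fold. Probe sets well above background could not be told from the deposited values, so low levels are the least certain.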

Other observations

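Targets of the aryl hydrocarbon receptor were looked up after the oxygen interaction was seen. Cyp1a1, Tiparp and Ahrr separated the hypoxic arrays of the first set from the other 6, while Cyp1b1 and Nqo1 did not. Cyp1a1, a cytochrome that metabolises aromatic compounds, was at 7.39 and 7.92 on the hypoxic WT and KO arrays of the first set, and between 3.65 and 4.51 on the other 6. Tiparp, another target, was at 11.30 and 11.33 on those 2 arrays and between 9.43 and 9.97 on the others, and Ahrr, the repressor of the receptor, at 7.47 and 7.83 against 5.50 to 6.51. In the test of the set difference by oxygen they gave -3.15 ± 0.19, -1.12 ± 0.083 and -1.66 ± 0.19, and none was called (adjusted p = 0.0575, 0.107 and 0.144 in limma). Cyp1b1, a further target, was at 11.63 and 12.00 on those 2 arrays and between 11.22 and 11.91 on the others. Nqo1 was at 8.31 and 8.79 against 7.59 to 9.17. In the same limma test they gave -0.73 ± 0.065 and -0.37 ± 0.15 (adjusted p = 0.144 and 0.408). The receptor itself, Ahr, was lower in the second set in 4 of 4 pairs, at -0.67 ± 0.10 (adjusted p = 9.1e-04).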
